A study of Mus musculus with 6 samples.

Results

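The genes described here are Il2, the T cell growth factor interleukin 2, the chains of its receptor (Il2ra, Il2rb and Il2rg), the related receptor chain Il15ra, and the transcription factors Stat5a and Stat5b. These 7 genes were chosen by name. Of them, 6 were matched to a probe set that carried exactly 1 gene symbol, among 22180 genes matched in this way, and Il2rg was not analysed here. Each of the 6 had a single such probe set. RNA was measured on 1-colour arrays in CD4+ T cells from animals of the OT II strain, which carry a transgenic receptor for an ovalbumin peptide, taken at 12 to 16 weeks of age. The cells had been cultured for 72 hours with antigen-presenting cells and peptide. Control cultures (3 arrays) were in complete RPMI-1640 with dialyzed serum, and low arginine cultures (3 arrays) were in the same kind of medium with 1% of the usual arginine (12 uM). CD4+ cells were purified again from both before RNA isolation. The description of the study names 6 mice, and the labels call the arrays biological replicates without saying whether equal numbers share an animal.

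Interleukin 2 is secreted by T cells after their receptor and CD28 are engaged, and acts on the same or on neighbouring cells. Its receptor joins the alpha chain (Il2ra, CD25), which raises affinity, to the signalling chains beta (Il2rb, CD122) and gamma (Il2rg). The beta and gamma chains also serve interleukin 15, which is bound and presented by Il15ra. The kinases Jak1 and Jak3 then phosphorylate STAT5, which enters the nucleus, induces Il2ra, Cish and survival genes, and restrains Bcl6 and Il2 itself. Regulatory T cells express much CD25 and consume interleukin 2.

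The labelled cell type was checked first. All 6 markers of CD4 T cells (Cd3e, Cd3d, Cd3g, Cd4, Cd28 and Cd5) were tested, and limma passed 0 of them (0 also before adjustment). Of all genes tested 12.2% passed, and before adjustment 4032 of all 14787 had a limma p below 0.05. Of 6 B cell markers matched, 3 lay under the limit for dim genes, a mean of 2.48 on the log2 scale, as did 3 of 9 markers of macrophages and dendritic cells. Summed on the linear scale, the B cell markers reached 34.1 to 37.3 in the controls and 33.8 to 36.4 in low arginine, and the macrophage and dendritic cell markers 71.9 to 107 and 90.2 to 94.4. The 7 markers of CD8 T and NK cells summed to 163 to 212 and 138 to 178, and 2 of them lay under that limit. Limma passed 0 of the 5 tested, and before adjustment 1 was higher and 2 were lower at p below 0.05. The brightest, Cd8b1, lay well above the limit, with means of 6.90 in the controls and 6.24 in low arginine (limma adjusted p = 0.0632). Control replicate 1 stood apart from the other controls on the second principal component of all genes tested (35.2 against -8.53 and -22.3), and the members' values without it are given beside each result. Since RNA was taken from the whole purified population, more RNA per cell and more cells of a type cannot be told apart.

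The sequences just upstream of Il2 and of Il2ra are shown because both genes are switched on by T cell activation through factors that bind there, and Il2 rose in low arginine while Il2ra did not pass the test. The windows run from 250 bases before to 50 bases after the start of transcription, in the 5′ to 3′ direction of the gene, as RefSeq gives them for GRCm38.p6. The Il2 window is chr3:37125905-37126204 on the minus strand, and the Il2ra window is chr2:11642542-11642841 on the plus strand. Capitals mark matches, on either strand, to the NFAT core GGAAA and to the kappa B consensus.
Il2: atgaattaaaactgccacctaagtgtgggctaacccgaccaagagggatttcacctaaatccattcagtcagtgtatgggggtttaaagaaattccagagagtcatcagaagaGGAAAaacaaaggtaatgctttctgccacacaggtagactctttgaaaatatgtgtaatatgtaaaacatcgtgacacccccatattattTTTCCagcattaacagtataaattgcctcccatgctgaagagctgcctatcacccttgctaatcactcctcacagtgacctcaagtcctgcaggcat
Il2ra: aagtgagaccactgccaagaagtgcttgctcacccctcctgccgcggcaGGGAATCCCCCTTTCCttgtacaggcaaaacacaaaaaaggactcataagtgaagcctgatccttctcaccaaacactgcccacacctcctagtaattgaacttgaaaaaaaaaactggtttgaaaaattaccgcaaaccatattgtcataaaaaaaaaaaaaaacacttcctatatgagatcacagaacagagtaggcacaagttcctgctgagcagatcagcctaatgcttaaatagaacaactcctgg
In the Il2 window the NFAT core occurred 2 times, at -137 to -133 on the strand shown and at -47 to -43 on the other, and the kappa B consensus had no match. In the Il2ra window it occurred 1 time, at -190 to -186, next to 2 overlapping kappa B matches between -201 and -191. The NFAT core is short and was present in 61.3% of 32851 such windows, 26.7% holding at least 2 matches. The kappa B consensus was present in 4.51%. The AP-1 letters TGANTCA (7.81% of windows) and the STAT letters TTCNNNGAA (8.3%) occurred in neither of these windows. Only exact matches to the letters were sought, GGGRNWYYCC for kappa B. Sites that depart from these letters would be missed, so a lack of matches does not show a lack of binding sites. Whether the windows bear on the difference between the 2 genes was not tested. Of the 7 genes, 6 had a window in the table, the exception being Il2rb.

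Il2 RNA was near the bottom of the measured range in control medium and clearly present in low arginine. The control arrays read 2.60, 2.04 and 2.31 on the log2 scale, in the order of replicates 1, 2 and 3. The low arginine arrays read 6.75, 6.89 and 4.93. The groups did not overlap, and a gap of 2.33 separated the highest control from the lowest low arginine array, which was replicate 3. The group means were 2.32 ± 0.28 and 6.19 ± 1.09 (SD, n = 3), a rise of 3.88 on the log2 scale (SE 0.48, 95% interval 2.76 to 4.99; limma, Benjamini-Hochberg adjusted p = 0.0046). The control mean lay under the limit for dim genes, so Il2 entered the test among 14787 genes only through its low arginine level. The size of its rise and the interval rest on control values that may not stand above background, and no fold is given. With control replicate 1 left out the rise was 4.02 (adjusted p = 0.00234).

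The alpha chain of the receptor showed no difference beyond the spread between arrays. Il2ra, at a high level on every array, read 11.09, 10.72 and 10.59 in control medium and 10.78, 10.70 and 10.999 in low arginine. The groups overlapped, the highest and the lowest value both being controls. The difference was 0.02 on the log2 scale (95% interval -0.34 to 0.39; limma adjusted p = 0.952), so a rise above 1.31-fold or a fall to below 0.788 of the control level lay outside the interval. Without control replicate 1 the difference was 0.17 (adjusted p = 0.408), and without control replicate 3 it was -0.08 (0.814).

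The beta chain, which carries the signal of both interleukin 2 and interleukin 15, was lower on every low arginine array, at the edge of the threshold. Il2rb read 10.78, 10.42 and 10.20 in the controls and 9.91, 9.96 and 9.75 in low arginine. No low arginine array reached the lowest control, though the gap was only 0.25. The means were 10.47 ± 0.29 and 9.87 ± 0.11 (SD, n = 3). The difference of -0.60 (95% interval -0.97 to -0.22) had a limma adjusted p of 0.051 and did not pass. With each array centred on its median or on its 75th percentile it passed (adjusted p = 0.0477 and 0.0458), and after quantile normalization it did not (0.0733). Without control replicate 1, the highest array, the difference was -0.44 (adjusted p = 0.038), and without control replicate 3 it was -0.73 (0.034). With any other single array left out it did not pass (adjusted p = 0.122 to 0.174).

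Il15ra, the chain that binds interleukin 15 with high affinity, lay higher on 2 of the 3 low arginine arrays. Its control values were 4.91, 4.73 and 5.20, and its low arginine values 5.61, 5.85 and 4.92. Replicate 3 of low arginine, which also had the lowest Il2 of the low arginine arrays, fell inside the control range. The difference was 0.51 (95% interval -0.05 to 1.08; limma adjusted p = 0.226), which did not pass, and it was 0.50 without control replicate 1 (0.245). It ranged from 0.32 without replicate 2 of low arginine (0.533) to 0.78 without replicate 3 (0.0664), and did not pass with any single array left out.

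Of the STAT5 pair, Stat5a rose. Its probe set read 6.36, 6.34 and 6.72 in control medium and 7.33, 7.05 and 7.18 in low arginine. All 3 low arginine arrays lay above all 3 controls, with a gap of 0.33. The means were 6.47 ± 0.21 and 7.19 ± 0.14 (SD, n = 3), a rise of 0.72 (SE 0.14, 95% interval 0.38 to 1.05; limma adjusted p = 0.0199), or 1.64-fold. The call held without control replicate 1 (0.66, adjusted p = 0.0185) and without control replicate 3 (0.84, 0.0175). It ended with control replicate 2 omitted (adjusted p = 0.0861), and with replicate 1, 2 or 3 of low arginine omitted (0.0701, 0.0596 and 0.0775), while the rise stayed between 0.64 and 0.78. In those settings, in the same order, 3.38%, 6.73%, 3.44% and 4% of all genes tested passed, against 12.2% with all arrays.

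Stat5b, the neighbouring gene and close paralog of Stat5a, read 7.78, 8.45 and 8.39 in the controls and 8.03, 8.18 and 8.05 in low arginine. The low arginine arrays sat close together, between control replicate 1 and the other controls. The difference was -0.12 (95% interval -0.55 to 0.30; limma adjusted p = 0.738), and -0.34 without control replicate 1 (0.0619). Sharing of signal between the probe sets of these paralogs was not tested.

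**Figure D1:**
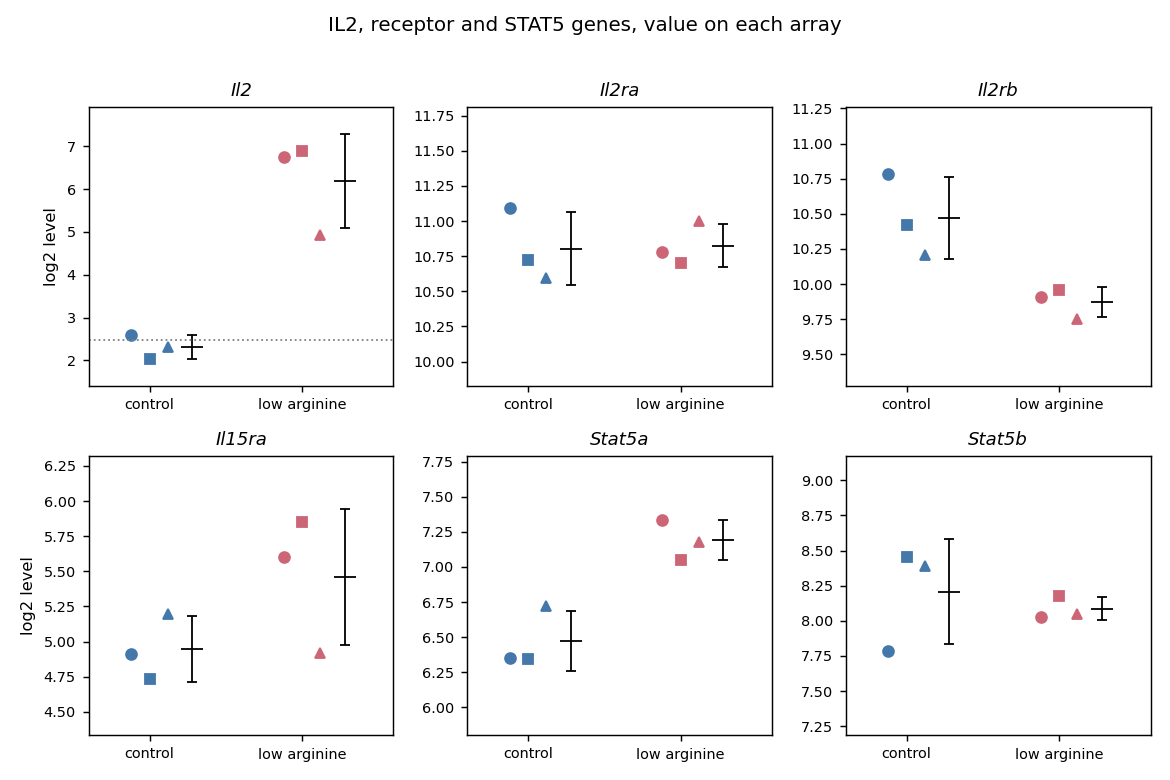
Log2 level (vertical axis) of each gene on each array, control in blue and low arginine in red, with replicates 1, 2 and 3 as circle, square and triangle. Black marks are the mean and SD of 3 arrays, the dotted line is the limit for dim genes (2.48), and each panel has its own scale. Il2, Il2rb and Stat5a do not overlap between media, and the other panels do.

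In all, limma passed 2 of the 6 genes (33.3%), Il2 and Stat5a, both higher in low arginine, where 12.2% of all genes tested passed in either direction, 5.19% as higher and 6.98% as lower. The groups did not overlap for 3 of the 6, against 32.2% of all genes tested. The median change of the 6 genes was 0.27, and that of all genes tested 0.01. Il2 entered the test only through its low arginine level, and the members were chosen with its rise already known. Its part in these shares was therefore partly fixed in advance. With 6 genes the shares describe the members and no more.

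**Figure D2:**
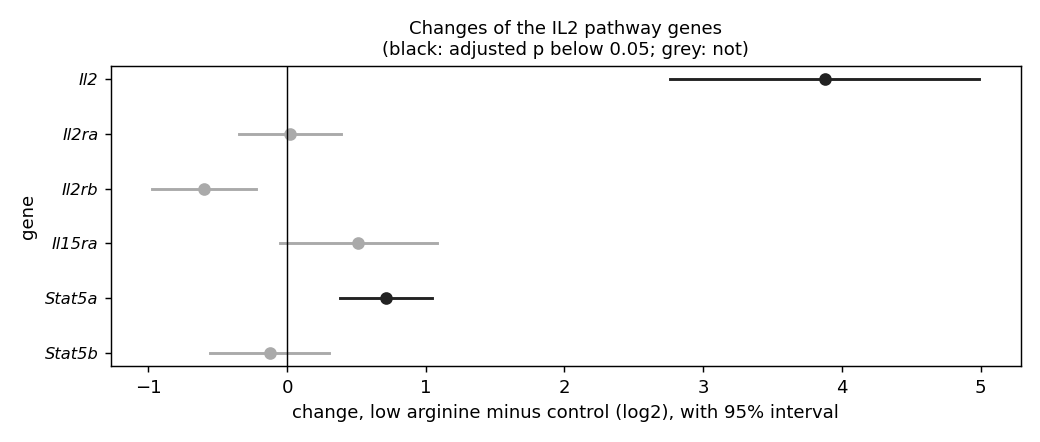
Log2 change of each gene, control subtracted from low arginine (horizontal axis), with its 95% interval from limma. Black points passed an adjusted p of 0.05 (Il2, 3.88, and Stat5a, 0.72), and grey points did not.

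Related members were also set against each other within arrays, for 2 pairs chosen after their values had been seen, so the differences are a description with no test. The difference of Stat5a from Stat5b, taken within each array, shifted upward by 0.84 from control medium to low arginine, with no overlap between groups (SD 0.34 and 0.22, n = 3). That of Il2ra from Il2rb shifted upward by 0.62 (SD 0.05 and 0.26, n = 3), again with no overlap.

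Between receptor and STAT5 stand kinases, adaptors and phosphatases, and limma passed 0 of 14 of these. Of all genes tested 12.2% passed, so a count of 0 in 14 does not show that this layer was unchanged. The groups did not overlap for 9 of the 14, against 32.2% of all genes tested. Before adjustment, 1 was higher and 4 were lower at p below 0.05, as were 4032 of all 14787 genes tested in either direction. The median change of the 14 was -0.09. Jak1, the kinase bound to the beta chain, read 9.35 ± 0.06 in control medium and 9.49 ± 0.04 in low arginine (SD, n = 3), a difference of 0.14 (limma adjusted p = 0.427). Jak3 was not analysed here. With array weights 1 of the 14 passed as higher and 6 as lower, where 37.3% of all genes tested passed. With the replicate number as a block 1 passed as lower, where 10.6% of all genes tested passed.

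Genes that interleukin 2 and STAT5 are known to induce moved in both directions. Of 30 tested, 5 rose, 8 fell and 17 did not pass, and their median change was -0.05. The share called was 43.3%, where 12.2% of all genes tested passed (5.19% as higher and 6.98% as lower). No test of a whole list was made. The feedback inhibitors read slightly higher without passing in the main fit. Cish, the inhibitor most closely tied to STAT5, differed by 0.34 (limma adjusted p = 0.0723), Socs1 by 0.29 (0.254) and Socs3 by 0.34 (0.401). Cish passed in 3 of the 15 alternatives. They were the mean of its probe sets (0.47, adjusted p = 0.0306), array weights (0.36, 0.00686) and the omission of control replicate 1 (0.37, 0.0417). In these 3 settings 12.1%, 37.3% and 22.5% of all genes tested passed. The survival gene Bcl2 differed by -0.10 (adjusted p = 0.732) and Myc, a driver of cell growth, by 0.24 (0.258).

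The 5 that rose were Foxp3, the factor that defines regulatory T cells, by 1.98 (limma adjusted p = 0.0117), the cytokine Lta by 1.24 (0.0125), the phosphatase Dusp5 by 0.95 (0.0122), the cyclin Ccnd2 by 0.74 (0.0143) and the survival gene Bcl2l1 by 0.58 (0.028). None of these 5 calls held when control replicate 2 was omitted (adjusted p = 0.0572 to 0.103). The calls of Lta, Dusp5, Ccnd2 and Bcl2l1 also ended when replicate 2 (0.0602 to 0.0958) or 3 (0.0503 to 0.0921) of low arginine was omitted. That of Bcl2l1 ended on omitting control replicate 3 (0.0667) or replicate 1 of low arginine (0.0934) as well. Of all genes tested, 3.38% passed without control replicate 2, and 3.44% and 4% without replicate 2 or 3 of low arginine.

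The 8 that fell included a protease, receptors and transcription factors. Gzmb, the cytotoxic protease granzyme B, fell from 10.78 ± 0.18 to 7.10 ± 1.12 (SD, n = 3), a change of -3.68 (limma adjusted p = 0.00534). Its lowest value was in low arginine replicate 3. Il12rb2, a chain of the interleukin 12 receptor, changed by -2.20 (adjusted p = 0.00606), the transcription factor Nfil3 by -1.81 (0.00281) and the inhibitory receptor Ctla4 by -1.62 (8.26e-04). Tnfrsf9 (4-1BB) changed by -1.46 (adjusted p = 0.00303) and Prdm1, the effector factor Blimp-1, by -1.36 (0.00474). These 6 passed in all 15 alternatives tried. Id2 changed by -1.59 (adjusted p = 0.0305) and Tbx21 (T-bet) by -1.20 (0.0466). The call of Id2 ended on omitting control replicate 2 or 1 of the low arginine arrays (adjusted p = 0.0693 to 0.11). That of Tbx21 ended on omitting 1 of the controls or replicate 1 or 3 of low arginine (0.0536 to 0.139), and with no filter on dim genes (0.0584).

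Genes that interleukin 2 and STAT5 are known to repress included more rises than falls. Of 9 tested, 3 rose and 1 fell (44.4%, against 12.2% of all genes tested). Their median change was 0.79, or 0.40 without control replicate 1. Il6ra, the receptor for interleukin 6, rose by 1.94 (limma adjusted p = 0.00474) and S1pr1, the receptor for lymph node exit, by 1.93 (0.00958), and both passed in all 15 alternatives. Bcl6, the factor of follicular helper cells, rose by 1.42 (adjusted p = 0.0462), a call that ended on omitting control replicate 2 or 1 of the low arginine arrays (0.112 to 0.16) and with no filter on dim genes (0.0584). Il7r, the receptor for interleukin 7, fell by 1.18 (adjusted p = 0.0109), and missed the threshold on omitting replicate 2 (0.0529) or 3 (0.0516) of low arginine.

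**Figure D3:**
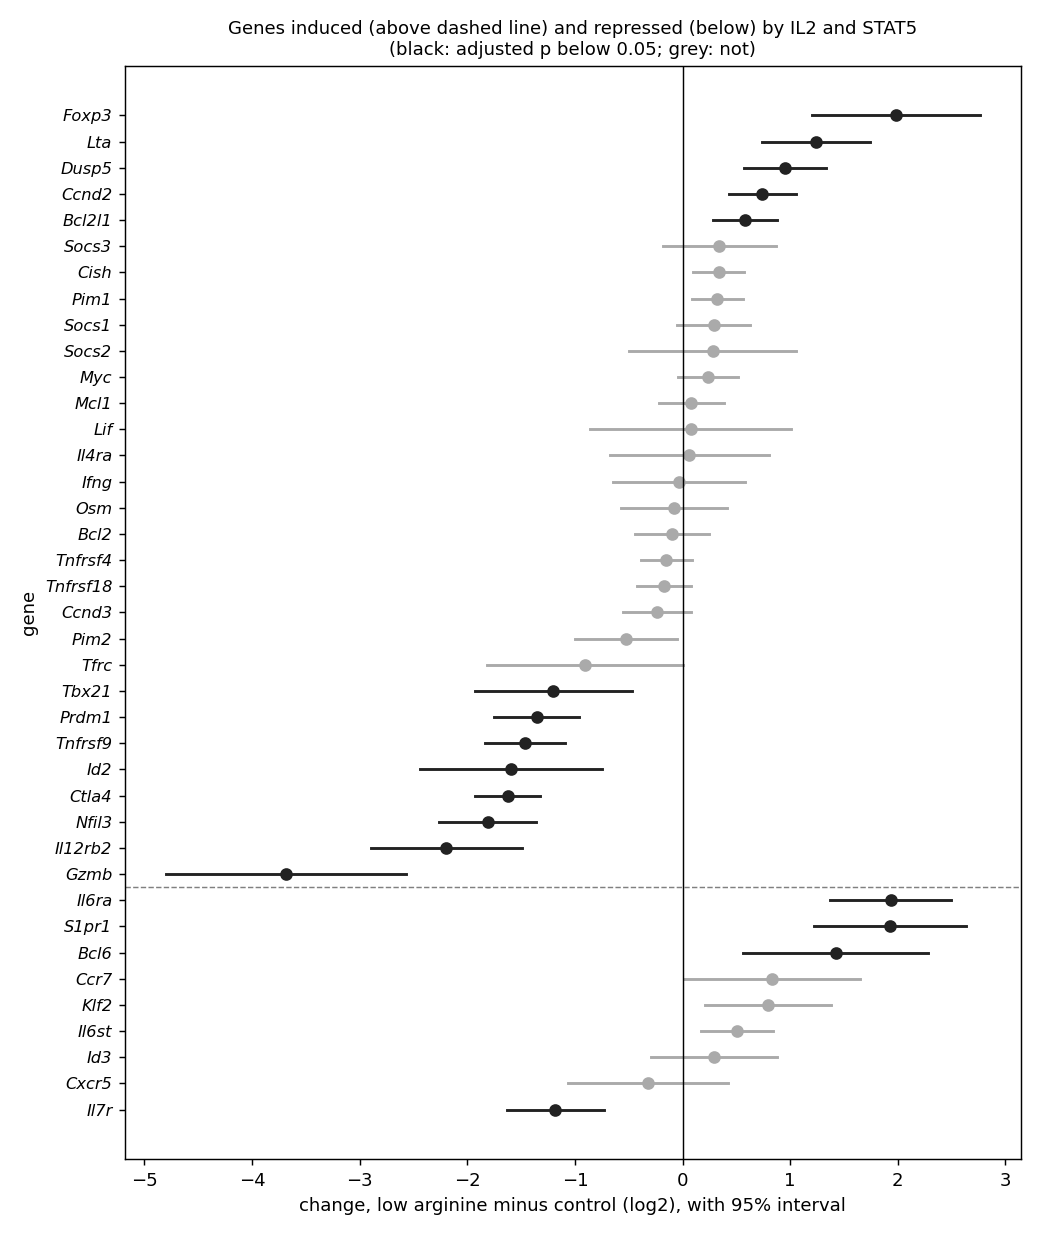
Log2 change, control subtracted from low arginine (horizontal axis), with 95% intervals from limma, for 30 genes induced and 9 repressed by interleukin 2 and STAT5. Black points passed an adjusted p of 0.05. The induced genes range from Gzmb (-3.68) to Foxp3 (1.98).

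Markers of regulatory T cells moved in both directions beside these genes. Of 6 tested, Foxp3 and Nrp1 (1.85, limma adjusted p = 0.00669) rose, Ctla4 fell, and Ikzf2, Ikzf4 and Tnfrsf18 did not pass. Thus 50% of the 6 markers passed, against 12.2% of all genes tested. Nrp1 rose from a low control mean of 3.13. The summed linear level of the 6 markers was 1309 to 1367 in the controls and 1474 to 2243 in low arginine. Such a sum follows its brightest genes. Tnfrsf18 was the brightest in both media (means of 9.49 and 9.32), and Foxp3 went from 7.20 to 9.18. The sum therefore does not show a rise of the markers as a set. Foxp3 read 8.86, 8.71 and 9.97 on the low arginine arrays. Among these arrays alone, replicate 3 had the lowest Il2 and the highest Foxp3, while between media both genes rose. The antibodies named for the purification do not include one against CD25. The part of these cells in the results was not tested.

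Among transcription factors that bind the Il2 promoter, the 3 NF-kappa B genes tested rose in low arginine, while none of the 3 NFAT genes passed. Of 24 tested, 4 rose and 2 fell (25%, against 12.2% of all genes tested), with a median change of 0.26. Nfkb2 rose from 7.10 ± 0.23 to 8.07 ± 0.11 (SD, n = 3), by 0.97 (limma adjusted p = 0.00776), and passed in all 15 alternatives. Rel, the NF-kappa B subunit needed for Il2 transcription, rose by 0.89 (adjusted p = 0.032), a call that ended on omitting control replicate 2 or 1 of the low arginine arrays (0.0733 to 0.121). Rela rose by 0.37 (adjusted p = 0.0496) and Egr3, a factor of receptor signalling, by 0.71 (0.0492). Rela and Egr3 each lost the call in 10 of the 15 alternatives, among them median centring (0.077 and 0.0602) and centring on the 75th percentile (0.12 and 0.0724), where the count of rises was 2.

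The 2 falls were Fosl2, an AP-1 subunit, by 1.33 (limma adjusted p = 0.0176), and Crem, a factor that can repress Il2, by 0.53 (0.044). The call of Fosl2 ended on omitting control replicate 2 or 1 of the low arginine arrays (adjusted p = 0.0635 to 0.075). That of Crem ended on omitting control replicate 2 or 3 or 1 of the low arginine arrays (0.0999 to 0.153), and with a trended and robust prior (0.0609). Nfatc1 differed by 0.31 (adjusted p = 0.187), Nfatc2 by -0.18 (0.505) and Fos by 0.09 (0.80). These are RNA levels, and the activity of NFAT and NF-kappa B is set largely by their movement into the nucleus.

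**Figure D4:**
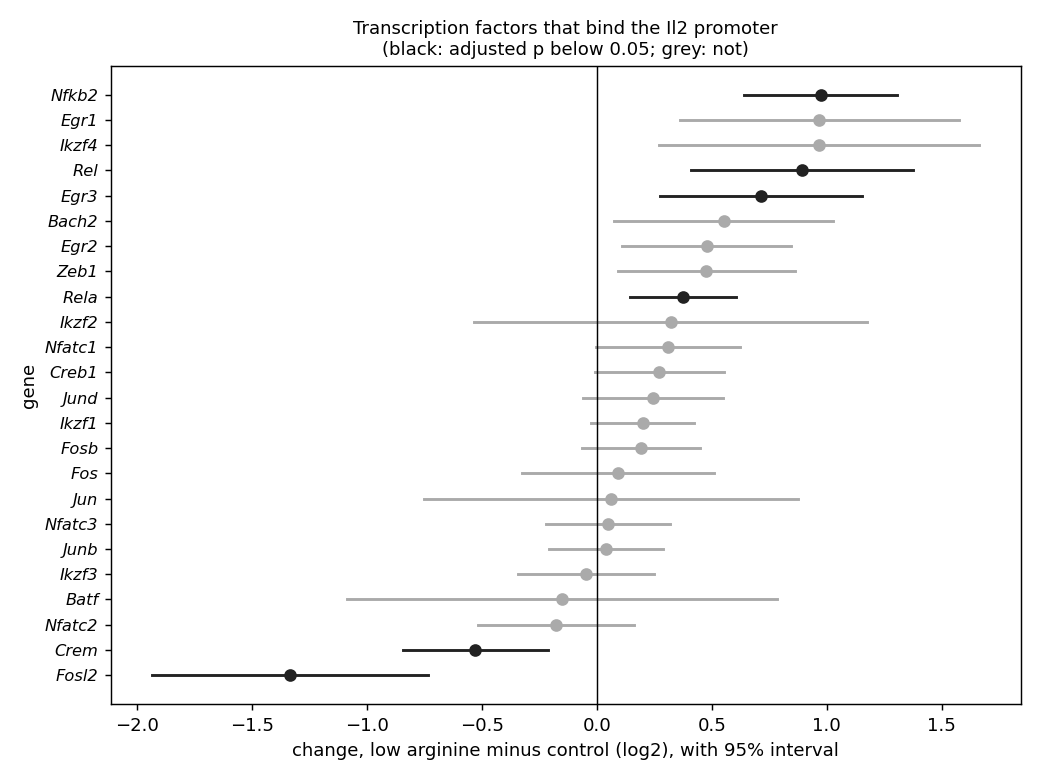
Log2 change, control subtracted from low arginine (horizontal axis), with 95% intervals from limma, for 24 transcription factors that bind the Il2 promoter. Black points passed an adjusted p of 0.05. They are Nfkb2, Rel, Egr3 and Rela on the right and Crem and Fosl2 on the left.

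Il2 mRNA is also controlled through its stability. Of 11 proteins of this kind tested, 2 rose and 0 fell by limma, and before adjustment 5 were higher and 0 lower at p below 0.05. The median change was 0.29. The share called was 18.2%, against 12.2% of all genes tested. Before adjustment, 4032 of all 14787 genes tested had a limma p below 0.05. The 2 that rose were the Roquin genes, which promote decay of cytokine mRNA. Rc3h2 rose by 0.66 (adjusted p = 0.00999) and Rc3h1 by 0.45 (0.0481). With control replicate 1 omitted, 4 of the 11 rose, where 22.5% of all genes tested passed in either direction. Rc3h2 missed the threshold on omitting control replicate 2 (0.0527) or replicate 3 of low arginine (0.0505). Rc3h1 lost its call in 9 of the 15 alternatives, among them quantile normalization (0.055) and the omission of each array but control replicate 1 (0.0658 to 0.17).

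Of the ligands tested that use the gamma chain (Il2, Il4, Il9 and Il21), Il2 alone passed. Il2 entered the test only through its low arginine level and was chosen with its rise known. The count therefore does not set Il2 apart from the other ligands. Of 7 tested genes for the other ligands and receptors of this family, Il7r fell and 0 passed as higher by limma (1 before adjustment, at p below 0.05). That share, 14.3%, was near the 12.2% of all genes tested that passed. Before adjustment, 4032 of all 14787 genes tested had a limma p below 0.05. Il9, a growth factor for mast cells, read 5.19, 2.55 and 2.68 in control medium and 6.59, 4.52 and 7.77 in low arginine, a difference of 2.82 (adjusted p = 0.0931), with control replicate 1 inside the low arginine range. With that array omitted Il9 was higher by 3.68 (adjusted p = 0.0141). Il4, the cytokine of type 2 helper cells, differed by -1.14 (adjusted p = 0.261) and Il21, a product of follicular helper cells, by 0.53 (0.431). The control value of Il4 was 5.54 in replicate 1 and 3.04 and 3.38 in the others. Il7 and Il15 lay under the limit for dim genes.

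Other cytokines of activated CD4 T cells were compared as well, and 3 of 12 rose while 0 fell by limma (4 and 0 before adjustment, at p below 0.05). That is 25%, against 12.2% of all genes tested. The median change of the 12 was 0.29. Before adjustment, 4032 of all 14787 genes tested had a limma p below 0.05. Tnf read 7.98 ± 0.29 in control medium and 9.17 ± 0.15 in low arginine (SD, n = 3), a rise of 1.18 (limma adjusted p = 0.00639) that passed in all 15 alternatives. Lta rose by 1.24 (adjusted p = 0.0125) and Il17a by 1.19 (0.0197). On omitting replicate 2 or 3 of low arginine the call of Il17a ended (adjusted p = 0.0879 and 0.0837), as did that of Lta (0.0602 and 0.0592). Csf2, the growth factor GM-CSF, was higher on all 3 low arginine arrays by 1.43 on average without passing (0.0511). It passed with control replicate 1 (0.0254) or low arginine replicate 3 (0.039) omitted. Ifng, the main cytokine of type 1 helper cells, differed by -0.03 (0.957), at low means in both media (3.23 in the controls and 3.20 in low arginine). The control means of Il17a (3.01) and Csf2 (3.08) were also low, near the array medians of 2.97 to 3.03. Il13 read 8.40 in control replicate 1 against 5.45 and 4.39 in the other controls, and differed by -1.79 (0.249).

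**Figure D5:**
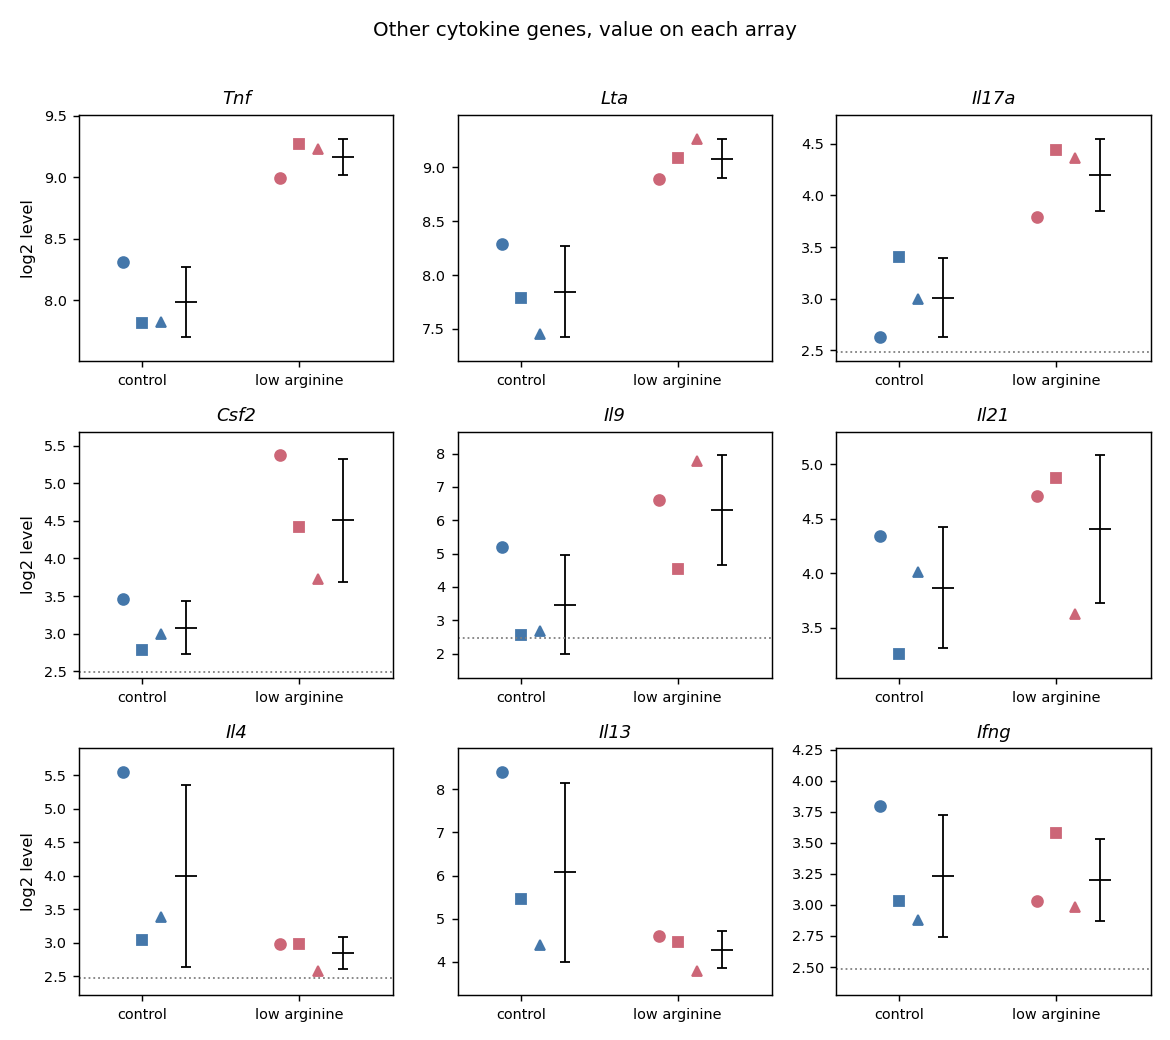
Log2 level (vertical axis) of 9 other cytokine genes on each array, control in blue and low arginine in red, with replicates 1, 2 and 3 as circle, square and triangle. Black marks are the mean and SD of 3 arrays, the dotted line is the limit for dim genes (2.48), and each panel has its own scale. Tnf, Lta and Il17a passed the test, and the circle of control replicate 1 is the highest control in every panel but that of Il17a.

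The genes whose pattern over the 6 arrays was most like that of Il2 were found among 2413 genes with a range of at least 1 on the log2 scale. The 5 highest Pearson correlations were with Avil (0.995), Cox6a2 (0.992), the cystine carrier Slc7a11 (0.990), Cd274 (0.989), which encodes the ligand PD-L1, and Gm15987 (0.988). The 5 lowest were with Gna13 (-0.994), Ctdspl (-0.994), Pcyox1 (-0.992), Wdr54 (-0.988) and Mvd (-0.988). The arrays form 2 groups that differ in all of these genes, so the values mostly restate that difference. Cd274 rose by 1.21 (limma adjusted p = 0.00474) and Avil by 1.42 (0.00647).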

How the data were processed

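The authors deposited 1 log2 expression value per probe set and array, used here as deposited (array medians 2.97 to 3.03). Per the submitters' processing notes oligo was used. Its version, the background correction, the normalization and the logarithm's base were not given in the sources used here. Base 2 was inferred from the range (0.956 to 12.41). Detection calls and scanner signals were not used here, and the small number of arrays limits precision. Among 41345 probe sets, 23521 had a single symbol. A gene was represented by its brightest probe set (mean of 6 arrays), and after removal of the dimmest share of 0.333 there were 14787 genes.

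The media were compared by limma 3.58.1 (R 4.3.3; lmFit, eBayes, group only, two-sided), with Benjamini-Hochberg adjustment across these genes and a threshold of 0.05. The fit was checked on simulated data. Members and gene lists (13, with 151 of 163 entries matched) were chosen with earlier results of these data known, including the rise of Il2. The text names all members, the 3 largest called changes of each list, every called gene where 5 or fewer passed in 1 direction, a preset group of cytokine, receptor and factor genes, and the genes most and least like Il2. Tbx21, Id2, Nfil3, Ctla4, Tnfrsf9, Prdm1, Il9, Csf2, Il13 and the regulatory T cell markers beyond Foxp3 were named after their values were seen. P-values set the difference between groups against the spread between these arrays, with each gene's variance moderated over all genes tested. The 15 alternatives were other scalings, other dim filters, the mean of probe sets, another variance prior, array weights, a replicate block and the omission of each array. Plots used matplotlib 3.10.9.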

Additional observations from a re-analysis of the deposited data

How the results depend on the processing

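Il2 passed in all 15 alternatives, with rises of 3.53 to 4.51 on the log2 scale, and Il2ra in none. No change of a member or list gene that was called in either setting turned its direction. Il2rb passed in 8 alternatives. Its change was -0.63 with median centring, -0.66 with centring on the 75th percentile, -0.60 with a share of 0.5 left out as dim, with a trended and robust prior and with the replicate block, and -0.54 with array weights, and -0.73 to -0.44 with single arrays left out. With array weights 5514 genes passed in all, against 1799, and 5 of the 6 members, since Il15ra (0.72) and Stat5b (-0.32) joined. With single arrays left out, 500 to 3325 genes (3.38% to 22.5% of all genes tested) and 1 to 3 members passed, and Stat5a rose by 0.64 to 0.84. A call lost or gained in such a setting was therefore set beside a changed share over all genes. Under centring on the 75th percentile, 535 genes were higher and 1190 lower, against 767 and 1032. With the replicate number as a block 1568 genes passed. Among the genes named, Il2rb (adjusted p = 0.0478) and Csf2 (0.0199) then passed, and Bcl6 (0.0504), Rc3h1 (0.0702) and Rela (0.0915) did not. The labels do not say that equal numbers share an animal, so the numbers were not taken as pairs. Deviations of same-numbered arrays correlated by 0.121, 0.0588 and 0.141 for replicates 1, 2 and 3. Each array correlated best with its own number, so the correlations are no reason against pairing. Of 101 list genes tested, 27 passed, where 12.2% of all genes tested did. Of the 27, 10 passed in every alternative. Values near 2.48 have no background measure, which limits the sizes given for Il2, Il9 and Il4. The same holds for Il17a, Csf2 and Nrp1, with control means of 3.01, 3.08 and 3.13. It also holds for Ifng, whose means were 3.23 in the controls and 3.20 in low arginine.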
